A study of Mus musculus with 12 samples.

Results

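Ursolic acid (UA) given late in colitis was compared with colitis alone, as 3 DSS+UA libraries against 3 DSS libraries, 6 of the 12 libraries of the study, over all genes. DSS is dextran sulfate sodium, a polymer that injures the colon epithelium, and UA is a plant triterpenoid. Male C57BL/6 mice arrived at 6 weeks of age and had 1 week of adaptation. In both groups DSS was in the drinking water at 3% (w/v) for 5 days. The DSS group received the vehicle by gavage, and the DSS+UA group received UA at 200 mg/kg once a day for 4 days, starting 3 days after DSS, by the methods. Other passages of the study's text give a different number of days of UA. The Con group, which had the vehicle and no DSS according to the methods (its labels say untreated), served here only as the reference level, and the UA+DSS group, which had UA from 24 hours before DSS, entered the fit but is not described. The labels name Trizol for the RNA where the methods name an RNeasy kit. Each group held 8 mice, of which 3 were sequenced, 1 colon tissue sample per library, so p-values measure the spread between these mice. The tissue holds many cell types, so that fewer cells of a type and less RNA per cell cannot be told apart.

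In DSS colitis the epithelium is lost in patches, bacteria reach the lamina propria, and neutrophils and monocytes enter through activated vessels. Fibroblasts and endothelial cells respond to interleukin 1, interleukin 6 family cytokines and TGF-beta by making matrix, proteases and growth factors, while crypt cells proliferate and re-cover the wound. Mature colonocytes depend on mitochondrial respiration of butyrate. The comparison asked which of these programs differed from the level in DSS when UA was begun after the injury had started, and which stayed there.

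The 6 libraries held 18284364 to 19204729 counts each. Before the results, 4 features of single libraries have to be stated. DSS 2 (replicate 2 of the DSS group) held 30640 CPM (counts scaled to a common library size) summed over the neutrophil and granulocyte genes, against 1624 and 1964 CPM in DSS 1 and DSS 3 and 1298 to 1729 CPM in the DSS+UA libraries. DSS 3 held RNA of pancreatic acinar cells, 19200 CPM summed over 14 digestive enzyme genes and their relatives, against at most 203.9 CPM in the other 5 libraries. DSS 1 held 247 CPM of Tgm4, a transglutaminase of the male accessory glands, against at most 6.65 CPM in the others. The Hox genes that rise toward the rectum summed to 324.1, 105.3 and 95.61 CPM in DSS 1, 2 and 3 and to 469.5, 581.5 and 621.8 CPM in the DSS+UA libraries. Their summed level did not overlap between the groups. In a fit with a Hox position score as covariate 199 genes were called (28 raised and 171 lowered), against 1331 without it. Genes described below that were not called in that fit include Ccl11, Acvr1, Camkk2, Ano1, Aldoc and Atp5k.

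A call is an adjusted p under 0.05 in edgeR's quasi-likelihood test, adjusted by the Benjamini-Hochberg method over the 17658 genes tested, and fold changes are log2, DSS+UA minus DSS. Of these genes 883 (5.0%) were lowered and 448 (2.54%) raised in DSS+UA, together 7.54%. The lowered genes changed more. Their median log2 fold change was -1.59, and 239 of them were over 4-fold lower, whereas the raised genes had a median of 0.80, with 338 of the 448 under 2-fold and 5 over 4-fold. For 7372 genes (41.7%) the 95% interval of the fold change lay within 1 log2 unit on either side of 0, which is the definition used below for a gene that stayed near the DSS level. Without overlap between the 3 libraries of each group, 16.4% of all genes were lower and 18.3% higher. In simulated counts, 200 of the 17658 genes were given a true change and the others none. With a log2 change of 2, 58.0% of them were detected, and with 1, 0.50%. More genes than that were called in the data, and libraries that stand apart were not simulated. These shares are therefore not the detection rates of this comparison. A gene that missed the threshold is still not shown to be unchanged.

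**Figure D1:**
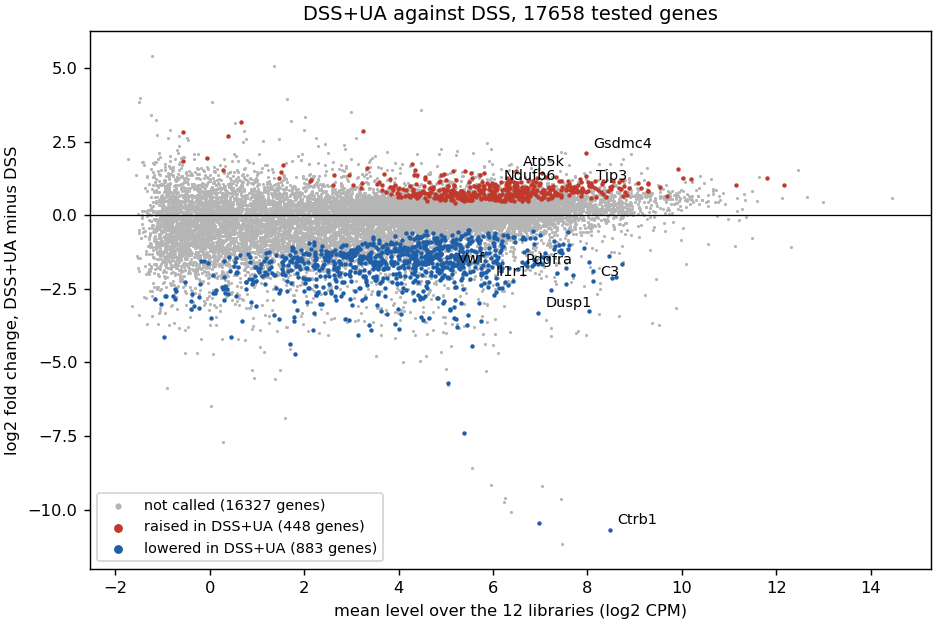
Each point is a gene, with its mean level over the 12 libraries in log2 CPM on the x axis and its log2 fold change in DSS+UA against DSS on the y axis. Genes called by edgeR are blue (883 lowered) or red (448 raised), and the lowered genes reach much further from 0 than the raised ones. The lowest labelled point, Ctrb1, is a pancreatic enzyme gene at 4280 CPM in DSS 3.

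The number of calls depended on single libraries. Without DSS+UA 3 only 25 genes were called, all lowered, without DSS+UA 2 there were 110 (109 lowered) and without DSS 2 there were 399 (369 lowered and 30 raised). Genes called under all 24 alternative settings are named as such below. In the gene groups that follow, a count of raised or lowered genes is to be read against the 2.54% and 5.0% of all tested genes, and a median against the 0.02 of all genes.

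**Figure D2:**
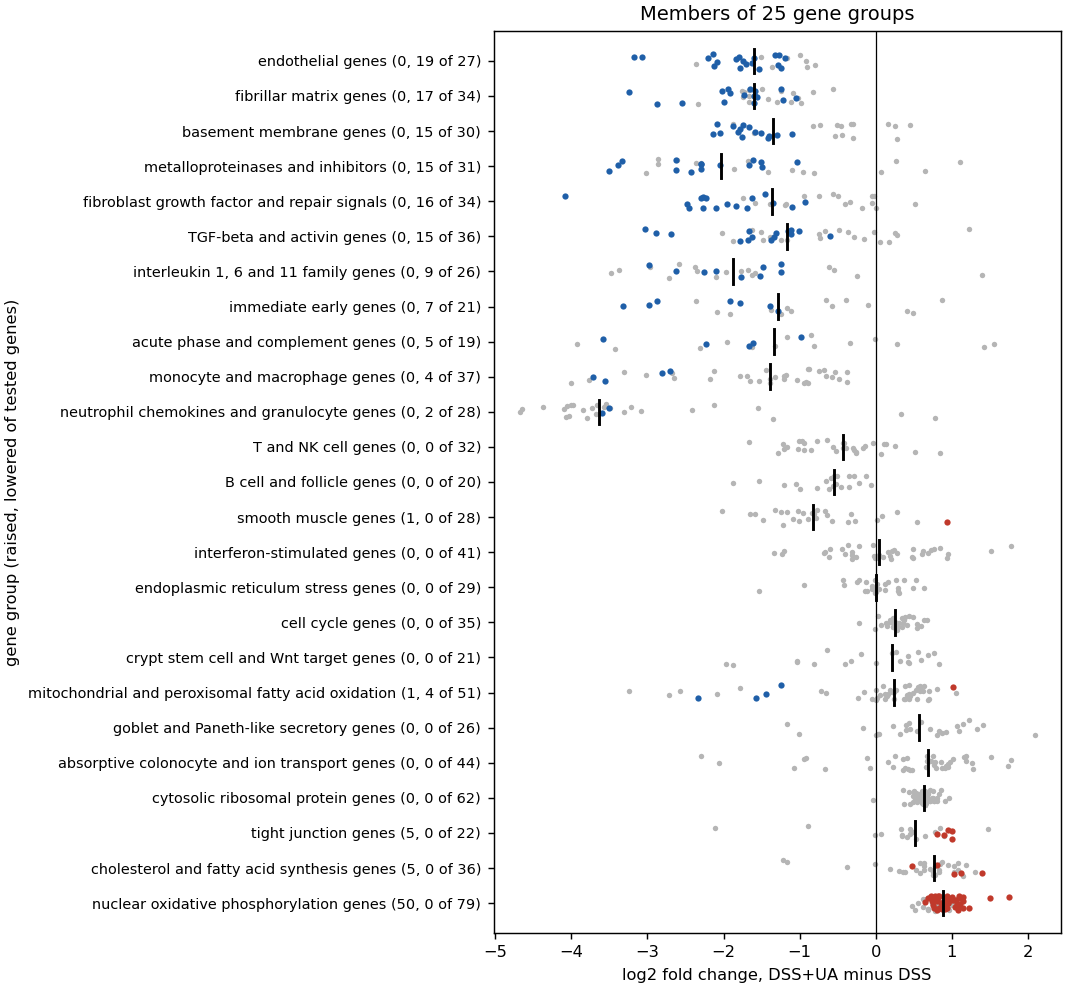
Each row is a gene group, each point a tested member placed by its log2 fold change in DSS+UA against DSS, and the black bar is the median of the group. Blue members were called lowered and red ones raised, with both counts beside the name. The endothelial, matrix, protease and cytokine groups lie to the left of 0, endoplasmic reticulum stress genes lie on both sides of 0, cell cycle genes lie slightly to the right (median 0.25), and nuclear oxidative phosphorylation genes lie to the right.

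The genes of blood vessels were lowered in the largest proportion, 19 of the 27 endothelial genes tested, with none raised. All 27 had a negative log2 fold change (median -1.60), and their summed level was 1009, 1429 and 1050 CPM in DSS 1, 2 and 3 and 368.4, 371.6 and 369.3 CPM in the DSS+UA libraries, which is below the 500.1 to 581.2 CPM of Con. Vwf (chr6:125546774-125686679 on GRCm38, plus strand), the von Willebrand factor that binds platelets to vessel walls, stood at 54.0, 53.3 and 69.2 CPM in DSS and at 16.1, 15.2 and 18.6 CPM in DSS+UA. No DSS+UA library came near a DSS library, and the log2 fold change was -1.83 (SE 0.16, edgeR adjusted p = 0.00126). Compared with Con, Vwf was lower in DSS+UA too (-0.88, edgeR adjusted p = 0.00722).

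Tie1 (chr4:118471191-118490061), an endothelial receptor of the angiopoietin pathway, stood at 28.7, 49.7 and 35.9 CPM in DSS and at 11.6, 12.5 and 10.8 CPM in DSS+UA, a log2 fold change of -1.71 (SE 0.20, edgeR adjusted p = 0.00386). Both genes were called under all 24 alternative settings. The other members called included the junction molecules Cdh5 (-2.12), Pecam1 (-1.54) and Esam (-1.29), the receptors of vascular growth factors Kdr (-1.62), Flt1 (-2.14) and Flt4 (-2.21), the lymphatic marker Lyve1 (-2.09), and the adhesion molecules that capture leukocytes, Selp (-3.18), Sele (-3.07), Vcam1 (-1.80) and Icam1 (-1.74). Endothelial calls numbered 13 without DSS 2, 5 without DSS+UA 2 and 4 without DSS+UA 3, and the median stayed between -1.76 and -1.20.

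The genes listed for the interleukin 1, 6 and 11 families held cytokines, receptors and others such as Stat3 and Ptgs2. Of these 26 genes 9 were lowered and none raised. Their summed level was 2191, 10700 and 2452 CPM in DSS 1, 2 and 3 and 1309, 1576 and 1547 CPM in the DSS+UA libraries. DSS 2 thus lay far above the other DSS libraries in the sum. Il1r1 (chr1:40225080-40317257), the signaling receptor for interleukin 1, had the smallest adjusted p of all genes. It stood at 106, 127 and 143 CPM in DSS and at 29.9, 22.2 and 26.8 CPM in DSS+UA, a log2 fold change of -2.25 (SE 0.16, edgeR adjusted p = 0.000268), and also lay below Con (38.1, 45.0 and 45.6 CPM; log2 fold change -0.71, edgeR adjusted p = 0.0132). Osmr (chr15:6813577-6874969), the receptor for oncostatin M, stood at 49.1, 57.4 and 49.5 CPM in DSS and at 19.9, 18.1 and 16.4 CPM in DSS+UA. Its log2 fold change was -1.52 (SE 0.17, edgeR adjusted p = 0.00333), and unlike Il1r1 it remained above the 9.04 to 12.2 CPM of Con (0.78, edgeR adjusted p = 0.0122). Il1r1 and Osmr were called under all 24 alternatives.

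The other 7 members called were the shared receptor chain Il6st (-1.48), the receptors Il6ra (-1.77) and Lifr (-1.24), the ligands Il11 (-2.62), Il33 (-2.10) and Lif (-1.24), and Ptgs2 (-2.98), the inducible prostaglandin synthase. Il33, an alarmin of stromal and epithelial cells, stood at 75.4, 91.9 and 89.8 CPM in DSS and at 24.2, 9.71 and 25.9 CPM in DSS+UA. The ligand Il1b missed the threshold (-3.37, edgeR adjusted p = 0.0943), as did Il6, which is given below. Stat3, the transcription factor downstream of the interleukin 6 family, was a borderline member of those near the DSS level. It stood at 277, 354 and 279 CPM in DSS and at 211, 195 and 213 CPM in DSS+UA (-0.55, interval -0.89 to -0.22, edgeR adjusted p = 0.0508), so the libraries did not overlap and the change, if any, was under 2-fold.

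Matrix genes were lowered over a wide front. Of 34 fibrillar matrix genes 17 were lowered, and all 34 had a negative log2 fold change (median -1.60). Of 30 basement membrane and integrin genes 15 were lowered (median -1.35). None was raised in either group. Lamb1 (chr12:31265234-31329644), a laminin chain of basement membranes, stood at 195, 219 and 250 CPM in DSS and at 64.2, 93.2 and 75.2 CPM in DSS+UA (-1.51, SE 0.17, edgeR adjusted p = 0.00386). Its DSS+UA libraries lay around the 82.8 to 90.2 CPM of Con (-0.15, edgeR adjusted p = 0.556).

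Nid2, a nidogen that links laminin to collagen IV, stood at 22.9, 34.5 and 42.7 CPM in DSS and at 8.11, 11.8 and 9.76 CPM in DSS+UA (-1.76, edgeR adjusted p = 0.00967). Fbln2, a fibulin of elastic fibers and vessel walls, stood at 81.2, 81.5 and 111 CPM in DSS and at 18.7, 27.5 and 22.3 CPM in DSS+UA (-1.999, edgeR adjusted p = 0.00734). Col15a1, a collagen next to the basement membrane, stood at 60.5, 112 and 109 CPM in DSS and at 25.6, 37.7 and 29.6 CPM in DSS+UA (-1.60, edgeR adjusted p = 0.0134). In all 3 the groups did not overlap, although the DSS libraries of Nid2 and Col15a1 were spread more widely than the gap between the groups. Further called members were the collagen IV chains Col4a1 (-2.14) and Col4a2 (-2.04), the laminin chains Lama1, Lama4, Lama5, Lamb2 and Lamc1 (-2.09 to -1.30), fibronectin (Fn1, -1.58), the wound matrix proteins Tnc (-2.54) and Thbs1 (-3.24) and the collagen cross-linking enzyme Lox (-2.87). Without DSS+UA 3 no fibrillar matrix gene and 1 basement membrane gene were called, and without DSS+UA 2 there were 2 and 2, although both medians were at -1.28 or below without either library.

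Enzymes that cut the matrix moved the same way, 15 of 31 metalloproteinase, inhibitor and plasminogen genes lowered and none raised (median -2.03). Adamts4 (chr1:171250421-171260637), an aggrecanase that cleaves proteoglycans, stood at 122, 48.7 and 80.8 CPM in DSS and at 8.27, 5.63 and 8.21 CPM in DSS+UA, a log2 fold change of -3.50 (SE 0.46, edgeR adjusted p = 0.00645). It remained above Con, where it was at 0.724, 0.832 and 1.55 CPM. Mmp19 stood at 37.2, 63.8 and 35 CPM in DSS and at 10.8, 9.46 and 7.21 CPM in DSS+UA (-2.30, edgeR adjusted p = 0.0114), with 24.7% of its stretches of 50 bases found in other genes. Called members also included Mmp2 (-1.66), Mmp12 (-2.62), Mmp14 (-1.03), Adamts1 (-2.43), Adamts5 (-2.04), Adamts9 (-2.30), Adam12 (-3.34), the urokinase gene Plau (-1.49) and the inhibitors Timp2 (-1.51) and Timp3 (-2.30), so proteases and inhibitors both fell. None of these genes was called without DSS+UA 3 and 2 were without DSS+UA 2, with medians of -2.14 and -1.99.

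The promoters of these protease genes are known for sites of AP-1, the Fos and Jun transcription factor. Its letters TGACTCA, searched on both strands in the 250 bases before the start, were present in 8 of 26 promoters (30.8%) of 22 of the genes, against 4.46% of all 32851 promoters in the RefSeq table. The 8 genes were Adam19, F3, Mmp3, Mmp7, Mmp10, Mmp12, Mmp13 and Plaur, of which Mmp12, a macrophage elastase, was the one called. The stretch before its start is shown with the motif in capitals, which begins 44 bases before the start (GRCm38.p6, chr9:7347124-7347373, plus strand).
Mmp12: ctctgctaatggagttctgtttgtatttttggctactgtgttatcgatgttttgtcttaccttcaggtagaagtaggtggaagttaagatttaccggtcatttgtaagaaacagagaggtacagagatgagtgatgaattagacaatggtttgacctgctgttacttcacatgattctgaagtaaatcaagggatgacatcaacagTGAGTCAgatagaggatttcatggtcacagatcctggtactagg

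Growth factor and TGF-beta genes of the stroma were lowered as well. Of 34 fibroblast growth factor and repair signal genes 16 were lowered (median -1.37), and of 36 TGF-beta and activin genes 15 (median -1.16), with none raised. Pdgfra (chr5:75152292-75198215), the platelet-derived growth factor receptor of colon fibroblasts, stood at 154, 169 and 216 CPM in DSS and at 47.6, 53.7 and 49.8 CPM in DSS+UA (-1.83, SE 0.22, edgeR adjusted p = 0.00387), at the 49.9 to 81.9 CPM of Con. It was called under all 24 alternatives. Hgf (chr5:16553495-16620152), hepatocyte growth factor, which fibroblasts secrete to repair epithelium, stood at 41.9, 37.5 and 63.1 CPM in DSS and at 7.06, 8.23 and 10.2 CPM in DSS+UA (-2.48, SE 0.37, edgeR adjusted p = 0.00867). It remained above the 2.95 to 3.74 CPM of Con (1.39, edgeR adjusted p = 0.0261).

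Ltbp1, which holds latent TGF-beta in the matrix, stood at 43.0, 40.0 and 48.4 CPM in DSS and at 22, 15.8 and 15.2 CPM in DSS+UA (-1.31, edgeR adjusted p = 0.00867), below Con (-0.74, edgeR adjusted p = 0.0243). Tgfbr1, the kinase of the TGF-beta receptor, stood at 88.3, 88.2 and 94.0 CPM in DSS and at 45.5, 34.8 and 44.9 CPM in DSS+UA (-1.11, edgeR adjusted p = 0.0134). The ligands Inhba (-2.69), Inhbb (-2.89), Fgf2 (-2.30), Fgf10 (-2.27) and Wnt5a (-1.63) were also called. One lowered member was an exception in size. Acvr1, a receptor for BMPs and activins, went from 23, 26.0 and 24.5 CPM to 16.6, 15.6 and 16.4 CPM (-0.60, interval -0.89 to -0.31, edgeR adjusted p = 0.0296), so it was called although its interval lay within 2-fold. Gli1, the target gene of hedgehog signaling in fibroblasts, stood at 3.94, 3.61 and 4.33 CPM in DSS and at 3.42, 4.02 and 4.27 CPM in DSS+UA, below the 6.27 to 11.3 CPM of Con in both (-0.02 between them, interval -0.60 to 0.56).

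**Figure D3:**
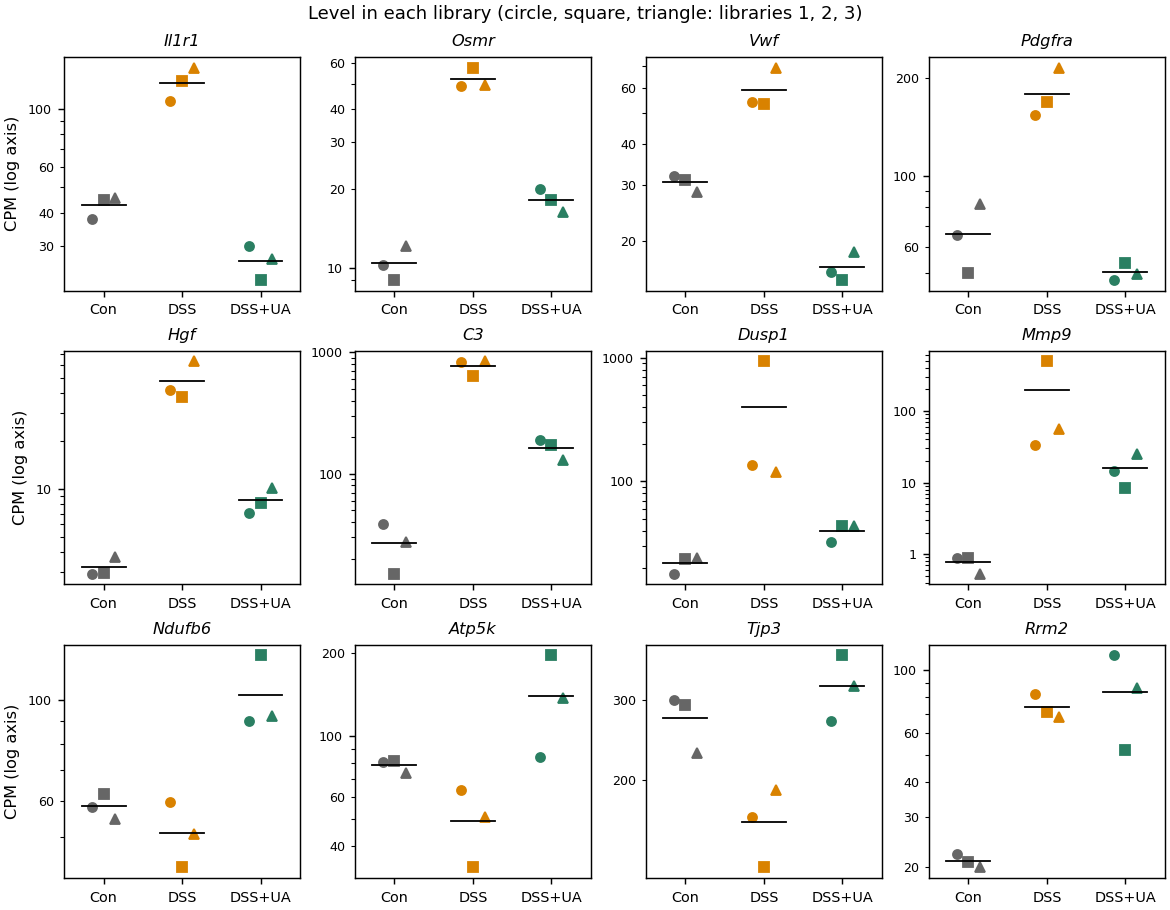
Each panel gives the CPM of a gene on a log axis in the 3 libraries of Con, DSS and DSS+UA, with a black line at the mean of the group. Il1r1, Osmr, Vwf, Pdgfra, Hgf and C3 were lower in every DSS+UA library than in every DSS library. In Dusp1 and Mmp9 the square of DSS 2 lies far above the other DSS libraries, Ndufb6, Atp5k and Tjp3 were higher in DSS+UA, and Rrm2 overlapped.

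Genes of the first response to a stimulus also fell. Of 21 immediate early genes 7 were lowered (median -1.28), among them Egr1, Egr2, Nr4a1 (-2.98), Nr4a2, Nr4a3, Ier3 and Dusp1. Egr1, a transcription factor induced within minutes of growth factor or cytokine signals, stood at 88.1, 105 and 54.2 CPM in DSS and at 19.8, 20.2 and 32.2 CPM in DSS+UA, near the 16.4 to 25.6 CPM of Con (log2 fold change against DSS -1.78, edgeR adjusted p = 0.0194). Dusp1, a phosphatase that switches off MAP kinases, stood at 137, 934 and 120 CPM in DSS and at 32.2, 43.8 and 43.5 CPM in DSS+UA (-3.32, SE 0.70, edgeR adjusted p = 0.0277). DSS 2 sets the size of that change. Over all alternatives it lay between -3.74 and -1.67, with the smallest size without DSS 2. In the 250 bases before the start, 1 of the 21 promoters (4.76%) of these genes held the cyclic AMP element TGACGTCA, searched on both strands, against 1.55% of all promoters. The share was 7.04% (5 of 71) for the oxidative phosphorylation genes described later. The CArG box of serum response factor was in 5 of the 21 (23.8%), those of Egr2 and Zfp36, against 1.47% of all, and the AP-1 letters were in 0. The promoter with the cyclic AMP element was that of Dusp1, a called gene, shown up to its annotated exon with the element in capitals, 143 bases before the start (GRCm38.p6, chr17:26508520-26508722, minus strand).
Dusp1: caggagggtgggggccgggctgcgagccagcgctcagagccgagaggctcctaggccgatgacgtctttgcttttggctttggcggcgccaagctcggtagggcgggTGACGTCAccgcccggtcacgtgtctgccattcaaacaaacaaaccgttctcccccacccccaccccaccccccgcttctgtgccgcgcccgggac

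Acute phase and complement genes gave 5 lowered of 19 (median -1.33). C3 (chr17:57203970-57228136), the central complement component, stood at 826, 641 and 842 CPM in DSS and at 190, 172 and 129 CPM in DSS+UA, a log2 fold change of -2.23 (SE 0.37, edgeR adjusted p = 0.0134), and remained above the 15 to 38.5 CPM of Con (2.60, edgeR adjusted p = 0.00504). Lbp, which presents bacterial lipopolysaccharide to its receptor, stood at 38.0, 16.3 and 22.7 CPM in DSS and at 7.06, 9.65 and 8.59 CPM in DSS+UA (-1.61, edgeR adjusted p = 0.0183). Ereg, epiregulin, a ligand of the EGF receptor in wound repair, stood at 174, 148 and 315 CPM in DSS and at 51.3, 23.9 and 40.2 CPM in DSS+UA (-2.46, edgeR adjusted p = 0.0210). Among circadian clock genes 3 of 18 were lowered, Rora, Nfil3 and Per1, around a median of -0.03 for the group. Rora, a nuclear receptor of the clock, stood at 15.9, 16.5 and 16.9 CPM in DSS and at 4.90, 5.94 and 4.27 CPM in DSS+UA (-1.70, edgeR adjusted p = 0.0134), below the 7.82 to 14.4 CPM of Con.

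Neutrophil genes had a large negative median and few calls. Of 28 neutrophil and granulocyte genes 2 were lowered (7.14%, beside 5.0% of all genes), with a median of -3.63. Without overlap 11 were lower in DSS+UA (16.4% of all genes were) and none higher. Mmp9, the gelatinase of neutrophil granules, stood at 33.6, 493 and 55.9 CPM in DSS and at 14.6, 8.29 and 25.2 CPM in DSS+UA (-3.60, SE 0.90, edgeR adjusted p = 0.0424), and Clec4d, a lectin receptor of myeloid cells, at 31.0, 340 and 18.8 CPM and at 10.7, 11.1 and 12.5 CPM (-3.50, SE 0.94, edgeR adjusted p = 0.0486). The groups do not overlap in either gene, but DSS 2 alone lies far above the rest. Without DSS 2 the median of the 28 genes was -0.61 and none was called, so the size of the neutrophil difference rests on that library. The summed level without it stood at 1624 and 1964 CPM in DSS and at 1654, 1298 and 1729 CPM in DSS+UA, where the ranges overlap.

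Of 37 monocyte and macrophage genes 4 were lowered, Cd163, Itgam, Marco and Spp1, and all 37 had a negative log2 fold change (median -1.39, and -1.11 without DSS 2). Cd163, a scavenger receptor of resident macrophages, stood at 125, 15.3 and 62.4 CPM in DSS and at 5.32, 5.63 and 6.26 CPM in DSS+UA, as in Con (1.33 to 7.14 CPM), with a log2 fold change of -3.56 (edgeR adjusted p = 0.0261). Itgam, the integrin CD11b, stood at 34.4, 196 and 29.9 CPM and 12.4, 10.7 and 13.9 CPM (-2.81, edgeR adjusted p = 0.0367). It was called in 13 of the 24 alternatives and not without DSS 2, and 66.3% of its stretches of 50 bases occur in another annotated gene. Of eosinophil and mast cell genes 1 of 16 was lowered, Ccl11, the eotaxin of stromal cells, at 104, 49.2 and 124 CPM in DSS and at 10.5, 13.1 and 27.8 CPM in DSS+UA (-2.43, edgeR adjusted p = 0.0202).

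Lymphocyte genes did not pass the test. None of 32 T and NK cell genes (median -0.43) and none of 20 B cell and follicle genes (median -0.55) was called, and their intervals were too wide to place them, as none lay within 1 log2 unit of 0. The B cell chemoattractant Cxcl13 stood at 453, 126 and 162 CPM in DSS and at 107, 31.2 and 64.1 CPM in DSS+UA (-1.87, edgeR adjusted p = 0.119). Of 14 plasma cell genes Derl3 and Irf4 were lowered. Derl3, of the secretory pathway, stood at 18.6, 14.8 and 17 CPM in DSS and at 6.74, 6.62 and 5.27 CPM in DSS+UA (-1.43, edgeR adjusted p = 0.0277). Immunoglobulin variable segments summed to 7325, 2538 and 5645 CPM in DSS and to 1425, 3158 and 1155 CPM in DSS+UA, so the groups overlapped through DSS 2 and DSS+UA 2. Of 171 segments tested, 8 were lowered, none was raised, and 143 had a negative log2 fold change.

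Among called protein-coding genes whose average log2 CPM reached 1 and whose groups stood apart, the 8 lowered most were Gpr84, Dio2, Ankrd33b, Ptx3, Fpr2, Ifitm6, Cd33 and Spp1, with log2 fold changes from -4.72 to -3.72. Ptx3, the long pentraxin of innate immunity, stood at 15.8, 6.26 and 24.6 CPM in DSS and at 0.737, 0.742 and 1.61 CPM in DSS+UA (-3.91, SE 0.82, edgeR adjusted p = 0.0261). Dio2, the deiodinase that activates thyroid hormone, stood at 13.9, 34.8 and 40.6 CPM in DSS and at 2.53, 0.247 and 2.44 CPM in DSS+UA (-4.08, edgeR adjusted p = 0.0401). In both, every DSS library lay above every DSS+UA library. Without DSS 2, Ptx3 kept its call and Dio2 lost it, and over all alternatives their log2 fold changes stayed between -4.37 and -3.40 and between -4.44 and -3.58. In the other 6 DSS 2 was the highest library, and without it all 6 lost their calls, with log2 fold changes of -1.88 (Gpr84), -1.20 (Ankrd33b), -1.21 (Fpr2), -1.51 (Ifitm6), -1.54 (Cd33) and -1.89 (Spp1). Examples are Gpr84, a receptor for medium-chain fatty acids on myeloid cells, which stood at 0.770, 34.5 and 2.80 CPM in DSS and at 0.369, 0.557 and 0.499 CPM in DSS+UA, and Cd33, a sialic acid receptor of myeloid cells, which stood at 33.0, 375 and 32.2 CPM and 11.4, 6.50 and 15.4 CPM. Of the stretches of 50 bases of Gpr84, Fpr2 and Spp1, 37.8%, 31.5% and 11.6% occur in other annotated genes, so their counts are uncertain. The called genes for digestive enzymes, Ctrb1 (5.48, 1.00 and 4280 CPM in DSS), Rnase1 and Cpa1, were high in DSS 3, and none of the 14 pancreatic genes was called without it.

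On the other side, the nuclear genes of oxidative phosphorylation were raised in the largest number. They encode subunits of the respiratory chain complexes and of ATP synthase. Of 79 tested, 50 were raised and none lowered, and 76 were higher without overlap (18.3% of all genes were). All 79 had a positive log2 fold change (0.48 to 1.75, median 0.88). Summed, they made 15610, 10310 and 15430 CPM in DSS 1, 2 and 3 and 20140, 31010 and 23810 CPM in DSS+UA 1, 2 and 3, beside 17690 to 21770 CPM in Con. DSS 2 was the lowest and DSS+UA 2 the highest. In DSS against Con, which shares the DSS libraries, 26 of the 79 were lowered (12.6% of all genes were) and none raised.

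Ndufb6 (chr4:40270591-40279421), a subunit of complex I, stood at 59.6, 42.8 and 50.8 CPM in DSS and at 89.8, 126 and 92.2 CPM in DSS+UA (1.00, SE 0.17, edgeR adjusted p = 0.0134). Its DSS+UA libraries lay above Con as well (54.9 to 62.1 CPM, 0.81, edgeR adjusted p = 0.0110), though 31.6% of its stretches of 50 bases occur in the antisense gene Smim27 that overlaps it. Ndufa11 (chr17:56717767-56722141), also of complex I, stood at 47.1, 35.5 and 46.4 CPM in DSS and at 63.2, 96.2 and 81.4 CPM in DSS+UA (0.90, SE 0.17, edgeR adjusted p = 0.0202). Atp5k (chr5:108433244-108434448), a subunit of the ATP synthase membrane part, stood at 63.5, 33.5 and 50.8 CPM in DSS and at 84.1, 196 and 137 CPM in DSS+UA (1.498, SE 0.35, edgeR adjusted p = 0.0341). In each of the 3 genes DSS+UA 2 was the highest library and DSS 2 the lowest.

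The rise of the group kept its direction in all settings but not its calls. Its median lay between 0.62 and 1.02, and all 79 genes were higher in every setting, whereas the number raised was 71 with DESeq2, 28 with library size as the only scaling, 2 without DSS 2, 1 without DSS+UA 2, and none without DSS+UA 3 or in a fit of the 2 groups alone. Gene length moved with this result. The median summed exon length was 2515 bases for raised genes, 5726 bases for lowered genes and 4348 bases for all protein-coding genes tested, and across genes the log2 fold change had a Spearman correlation with length of -0.24, given as a description since genes are not independent. Within libraries the level correlated with length at -0.035, 0.048 and 0.23 in DSS 1, 2 and 3 and at -0.10, -0.43 and -0.19 in the DSS+UA libraries. After a length trend was removed from each library, 19 of the 79 were raised and the median was 0.62. Cytosolic ribosomal protein genes, which are short as well, had a median of 0.64 with 61 of 62 positive and none called.

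NRF1, nuclear respiratory factor 1, is known to bind GC-rich sites at genes of the respiratory chain. A part of NRF1 in the changes described here was not tested. Its palindromic motif of 10 bases, spelled in capitals in the sequences that follow, was present in the 250 bases before the start in 4 of 71 promoters (5.63%) of 66 of the genes, against 0.782% of all 32851 promoters. The promoters belonged to Atp5k, Cox6a1, Ndufa11 and Atp5g2, and all 4 genes were raised (1.498, 1.10, 0.90 and 0.88), in a list where 50 of 79 were. For the first 3 the stretch around the motif is given, cut where an annotated untranslated region begins, with the motif in capitals. In Atp5k 9 bases of the motif itself lie in that region. It begins 50 bases before the RefSeq start in Atp5k (GRCm38.p6, chr5:108434440-108434649, minus strand), 162 in Cox6a1 (chr5:115348982-115349208, minus strand) and 60 in Ndufa11 (chr17:56717686-56717761, plus strand).
Atp5k: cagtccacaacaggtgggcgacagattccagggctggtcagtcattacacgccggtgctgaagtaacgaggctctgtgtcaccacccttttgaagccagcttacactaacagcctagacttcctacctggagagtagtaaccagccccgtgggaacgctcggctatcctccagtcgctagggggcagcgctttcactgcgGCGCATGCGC
Cox6a1: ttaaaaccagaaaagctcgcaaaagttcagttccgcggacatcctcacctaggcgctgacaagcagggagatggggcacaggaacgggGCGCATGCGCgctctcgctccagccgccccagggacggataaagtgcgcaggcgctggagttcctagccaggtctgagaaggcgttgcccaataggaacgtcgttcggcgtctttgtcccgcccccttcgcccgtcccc
Ndufa11: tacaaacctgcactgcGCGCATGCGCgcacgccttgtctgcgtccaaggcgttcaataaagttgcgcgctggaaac

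The 13 protein genes of the mitochondrial genome, whose products join the same complexes, gave no call (median 0.57). They summed to 10650 to 27720 CPM in DSS and to 26580 to 28300 CPM in DSS+UA, against 40700 to 99970 CPM in Con, and 11 of the 13 were lowered in DSS against Con. In mt-Nd4, a subunit of complex I, the level stood at 1002, 872 and 1390 CPM in DSS and at 1719, 1421 and 1696 CPM in DSS+UA, where the groups did not overlap but missed the threshold (0.57, interval -0.19 to 1.32). Of its stretches of 50 bases 62.2% also occur in the annotated gene Gm28439. DSS+UA stayed below Con (-1.46, edgeR adjusted p = 0.0188).

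Junction genes of the epithelium rose in 5 of 22 cases with none lowered (median 0.51), namely Tjp3, Marveld2, Marveld3, Cldn3 and Cldn7. Tjp3 (chr10:81273207-81291581), a scaffold of tight junctions, stood at 166, 128 and 190 CPM in DSS and at 270, 377 and 322 CPM in DSS+UA, around the 229 to 300 CPM of Con (1.00, SE 0.20, edgeR adjusted p = 0.0219). Marveld2 (chr13:100595957-100616971), tricellulin, which seals the corners where 3 cells meet, stood at 21.2, 21.2 and 29.5 CPM in DSS and at 37.5, 44.2 and 44.1 CPM in DSS+UA (0.81, SE 0.15, edgeR adjusted p = 0.0202). The groups did not overlap in either gene. Without DSS 2, DSS+UA 2 or DSS+UA 3 in turn none of the 22 was called, with a median of 0.42 to 0.52.

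Genes of lipid synthesis rose in 5 of 36 cases (median 0.76), all enzymes of sterol synthesis except the fatty acid elongase Elovl1 (0.48). Ebp, a sterol isomerase, stood at 65.9, 41.3 and 60.2 CPM in DSS and at 103, 132 and 107 CPM in DSS+UA (1.03, edgeR adjusted p = 0.0277), and Sc5d, a sterol desaturase, at 65.6, 51.7 and 79.4 CPM and 94.7, 132 and 117 CPM (0.80, edgeR adjusted p = 0.0374). Tm7sf2 (1.39) and Mvk (1.12) were called too. Of 24 glycolysis genes Tpi1, Pdk1 and Aldoc were raised, with Tpi1, triose phosphate isomerase, at 532, 483 and 539 CPM in DSS and at 820, 998 and 952 CPM in DSS+UA (0.83, edgeR adjusted p = 0.0386).

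Under the same limits on level and overlap, the 8 called protein-coding genes raised most were Gsdmc4, Cox7a1, Cfap52, Nrap, Ckmt1, Aldoc, Lrrc26 and Atp5k, with log2 fold changes from 2.10 to 1.498. Without DSS+UA 3 no gene was called raised, so all 8 lost their calls there. Atp5k was called in 16 of 24 alternatives, Aldoc in 9 of 24 and Cfap52 in 6 of 23. None of these was called without DSS 2 or DSS+UA 2. Cfap52 rested on 19, 9 and 9 counts in DSS and 29, 54 and 22 counts in DSS+UA. Gsdmc4 (chr15:63891264-63912297), a gasdermin of the colon epithelium, stood at 143, 39.2 and 82.8 CPM in DSS and at 165, 461 and 512 CPM in DSS+UA, beside 313 to 627 CPM in Con (2.10, SE 0.56, edgeR adjusted p = 0.0473). Its neighbours Gsdmc2, Gsdmc3 and Gsdmc share 39.0% of its stretches of 50 bases, so its counts are uncertain. Ckmt1, the mitochondrial creatine kinase, stood at 665, 306 and 666 CPM in DSS and at 1091, 2193 and 1565 CPM in DSS+UA (1.57, edgeR adjusted p = 0.0350). Lrrc26, a potassium channel subunit of goblet cells, stood at 25.1, 10.2 and 24.7 CPM in DSS and at 41.2, 71.0 and 58.2 CPM in DSS+UA (1.51, edgeR adjusted p = 0.0265). Neither Ckmt1 nor Lrrc26 differed by a call between DSS+UA and Con (0.77, edgeR adjusted p = 0.152, and 0.45, edgeR adjusted p = 0.323).

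Other epithelial genes were higher without passing the test. Of 44 absorptive colonocyte and ion transport genes 36 had a positive log2 fold change (median 0.69) and none was called, whereas 51.3% of all genes were positive. Lypd8, a colonocyte protein that keeps flagellated bacteria away, stood at 3362, 1043 and 3234 CPM in DSS and at 3805, 10920 and 7154 CPM in DSS+UA (1.52, edgeR adjusted p = 0.0814), and the amino acid transporter Slc6a14 at 182, 80.5 and 250 CPM and 266, 564 and 396 CPM (1.26, edgeR adjusted p = 0.0716). Of 26 goblet and Paneth-like secretory genes 23 were positive (median 0.57) and none was called. Their transcription factor Atoh1 stood at 24.7, 7.67 and 29.3 CPM in DSS and at 43.0, 59.1 and 42.9 CPM in DSS+UA, under the 70.7 to 91.0 CPM of Con (1.23, edgeR adjusted p = 0.0649). In both Lypd8 and Atoh1 the groups did not overlap, with DSS 2 the lowest and DSS+UA 2 the highest. Single called genes of other lists were Plac8 (1.26), Il17rc (1.12), a receptor chain for interleukin 17, and Sult1b1 (1.29), a sulfotransferase of colonocytes.

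Proliferation genes stayed within 2-fold of the DSS level for the most part, with a slight shift upward. Of 35 cell cycle genes none was called, 28 had an interval within 1 log2 unit of 0 (41.7% of all genes did), and the median was 0.25. The sign was positive for 33 of the 35 (51.3% of all genes were positive). Without overlap 6 were higher, a share close to the 18.3% of all genes. Their summed level was 2689, 2248 and 2564 CPM in DSS 1, 2 and 3 and 3674, 2249 and 3251 CPM in the DSS+UA libraries, so only DSS+UA 2 lay among the DSS libraries. In DSS against Con, 14 of the 35 were raised (13.9% of all genes were). Rrm2 (chr12:24708241-24714146), the small subunit of ribonucleotide reductase, stood at 82.2, 70.9 and 68.0 CPM in DSS and at 113, 51.8 and 86.5 CPM in DSS+UA, against 19.9 to 22.2 CPM in Con, so DSS+UA remained at the DSS level (0.18, interval -0.42 to 0.79) and above Con (1.997, edgeR adjusted p = 0.00490). Ccne1, cyclin E1, stood at 20.5, 16.9 and 15.4 CPM in DSS and at 28.4, 12.6 and 17.5 CPM in DSS+UA, against 3.98 to 6.04 CPM in Con (0.15, interval -0.56 to 0.86).

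Endoplasmic reticulum stress genes behaved alike, with 24 of 29 intervals within 1 log2 unit, no call and a median of 0.00. In DSS against Con 13 of the 29 were raised (13.9% of all genes were). Of 28 repair-associated epithelial genes only 5 had an interval within 1 log2 unit, a smaller share than the 41.7% of all genes. From this list 3 genes were lowered (5.0% of all genes were). S100a11 and Anxa1 were chosen among those with such an interval. S100a11, a calcium-binding protein, stood at 349, 762 and 348 CPM in DSS and at 551, 454 and 506 CPM in DSS+UA, against 135 to 154 CPM in Con (0.05, interval -0.67 to 0.77), with 41.1% of its stretches of 50 bases in pseudogenes. Anxa1, a mediator of wound closure, stood at 454, 1115 and 399 CPM in DSS and at 650, 598 and 640 CPM in DSS+UA, against 201 to 232 CPM in Con (-0.06, interval -0.90 to 0.78). In both, DSS 2 was the highest library and every DSS+UA library lay above DSS 1 and DSS 3. Without DSS 2 the log2 fold changes were 0.55 for S100a11 and 0.58 for Anxa1, neither called, so their place at the DSS level rests on that library.

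Crypt stem cell and Wnt target genes gave no call among 21 (median 0.22). Of their intervals 9 lay within 1 log2 unit, a share close to the 41.7% of all genes. Without overlap 5 were higher and 3 lower (18.3% and 16.4% of all genes were). Rgmb stood at 45.3, 36.6 and 50 CPM in DSS and at 63.2, 55.2 and 60.3 CPM in DSS+UA, against 84.8 to 116 CPM in Con (0.44, interval 0.09 to 0.78, edgeR adjusted p = 0.0947), and Axin2, a feedback inhibitor of Wnt signaling, at 19.7, 16.7 and 27.2 CPM and 34.1, 28.1 and 23.3 CPM, against 39.8 to 48.9 CPM (0.43, interval -0.05 to 0.90). Rgmb, Axin2 and the genes that follow in this paragraph were chosen for an interval within 1 log2 unit of 0. Other genes that DSS had lowered and that stayed within 2-fold were Slc4a2, an anion exchanger (0.16, interval -0.57 to 0.89), Ifih1, a sensor of viral RNA (0.20, interval -0.49 to 0.90), and Gsdme, a gasdermin (0.09, interval -0.55 to 0.73). For Cgn, cingulin of tight junctions, it was 0.45 (interval 0.09 to 0.81). Cgn and Slc4a2 share 17.2% and 12.1% of such stretches with other genes.

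**Figure D4:**
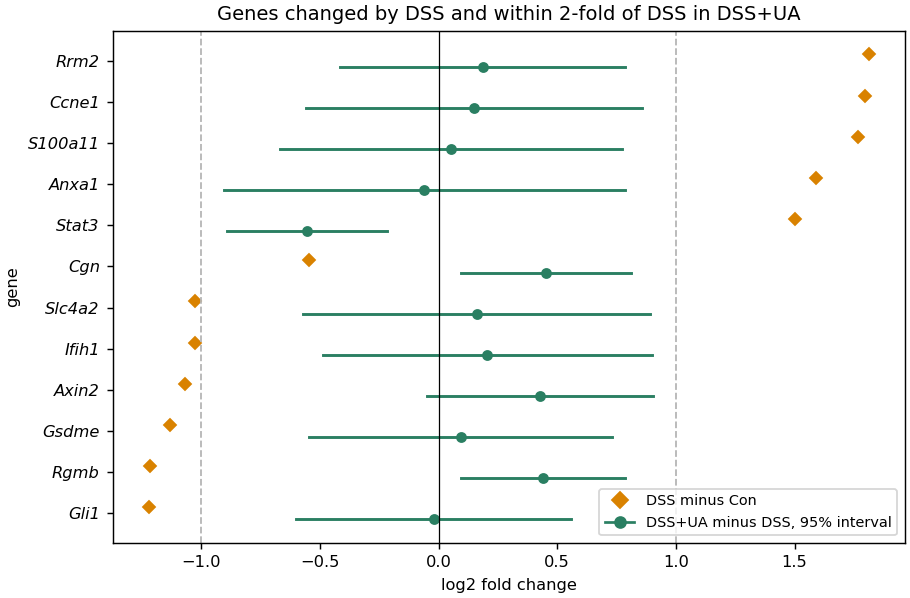
For 12 genes called in DSS against Con, the orange diamond is the log2 fold change of DSS minus Con and the green point with its line is that of DSS+UA minus DSS with its 95% interval. All green lines lie between the dashed lines at -1 and 1. Both comparisons share the DSS libraries.

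Other groups gave few calls in either direction. AMPK and FoxO genes had 20 of 35 intervals within 1 log2 unit, none raised and 2 lowered, Klf15 at 6.93, 4.71 and 8.66 CPM in DSS and at 1.21, 1.55 and 1.05 CPM in DSS+UA (-2.41, edgeR adjusted p = 0.0306) and the AMPK kinase Camkk2 (-1.22). Fatty acid oxidation genes gave 1 raised, Etfb (1.01), and 4 lowered of 51 (median 0.23), with 18 intervals within 1 log2 unit. The lowered ones were the acyl-CoA synthetases Acsl4 and Acsl6, the fatty acid carrier Cd36 and Angptl4, an inhibitor of lipoprotein lipase, none of which is an enzyme of the oxidation cycle itself. Acsl4 stood at 83.5, 107 and 102 CPM in DSS and at 44.9, 33.5 and 44.7 CPM in DSS+UA (-1.25, edgeR adjusted p = 0.0134). In DSS against Con, 17 of these 51 genes were lowered (12.6% of all genes were). Of 51 drug and steroid metabolism genes 1 was raised (median -0.01). Of these, 19 were lowered in DSS against Con and 15 in DSS+UA against Con (8.95% of all genes were).

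Interferon-stimulated genes gave no call of 41 (median 0.04) and MHC class II genes none of 11 (median 0.32). Only 3 and 0 of their intervals lay within 1 log2 unit, so these groups are undetermined rather than at the DSS level. H2-DMb1 shows why, at 37.7, 24.1 and 16.8 CPM in DSS and at 18.0, 130 and 20.7 CPM in DSS+UA, where DSS+UA 2 stands alone and 22.7% of the stretches of 50 bases are shared with H2-DMb2. Smooth muscle genes (median -0.82) and enteric neuron and glia genes (median -0.85) gave 1 raised of 28, the chloride channel gene Ano1 (0.94), and no call of 29. Most members were lower all the same, 23 of 28 and 27 of 29, whereas 51.3% of all genes were higher. Without overlap 15 smooth muscle genes and 6 neuron and glia genes were lower, beside 16.4% of all genes. Smooth muscle genes summed to 2459 to 3602 CPM in DSS and to 1594 to 2292 CPM in DSS+UA. All 11 adipocyte genes were lower too (median -1.18), none called, with sums of 173.4 to 332.9 CPM in DSS and 54.24 to 140 CPM in DSS+UA. These markers moved in the same direction as the endothelial and matrix genes, and their part in those results was not tested.

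The 6 genes that the study itself followed by RT-PCR or immunoblot were split. Tgfb1 stood at 78.0, 113 and 56.4 CPM in DSS and at 36.6, 42.7 and 34.0 CPM in DSS+UA (-1.12, SE 0.27, edgeR adjusted p = 0.0366), and Itga5, the fibronectin receptor chain, at 110, 220 and 138 CPM and 50.4, 35.8 and 40.6 CPM (-1.88, SE 0.43, edgeR adjusted p = 0.0333). Both were lowered, Itga5 to the level of Con (-0.08), and both lost their calls without DSS 2, DSS+UA 1, DSS+UA 2 or DSS+UA 3. Il6 stood at 7.12, 10.4 and 26.6 CPM in DSS and at 1.48, 0.371 and 6.65 CPM in DSS+UA (-2.37, SE 0.98, edgeR adjusted p = 0.137). Col1a1 stood at 310, 488 and 988 CPM and 108, 253 and 168 CPM (-1.75, SE 0.61, edgeR adjusted p = 0.0921). Csf1 stood at 32.0, 45.8 and 35 CPM and 17.2, 23 and 20.4 CPM (-0.90, SE 0.28, edgeR adjusted p = 0.0703). These 3 did not overlap between the groups but missed the threshold. Ccr2, the receptor that brings monocytes into tissue, overlapped, at 34.5, 53.2 and 43.5 CPM in DSS and at 12.4, 38.5 and 20.3 CPM in DSS+UA (-0.88, SE 0.40, edgeR adjusted p = 0.165).

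Set against Con, DSS+UA still differed in 3193 genes (18.1%), 1613 raised (9.13%) and 1580 lowered (8.95%). Gene groups differed in where DSS+UA stood relative to Con. The median log2 fold change of DSS+UA against Con was -0.04 for fibrillar matrix, 0.02 for basement membrane and -0.72 for endothelial genes, with 7 of the 27 endothelial genes lowered against Con. It was 0.66 for metalloproteinases and inhibitors and 0.88 for the interleukin 1, 6 and 11 families, with 6 of 31 and 8 of 26 raised. It was 1.48 for monocyte and macrophage genes, 6.03 for neutrophil genes and 0.93 for cell cycle genes, with 11 of 37, 22 of 28 and 18 of 35 raised (9.13% of all genes were). The neutrophil median is over genes of which 8, 14 and 13 had no counts in Con 1, 2 and 3, and it depends on how such genes are fitted. Summed, these genes made 321.6 to 939.5 CPM in Con and 1298 to 1729 CPM in DSS+UA, which did not overlap.

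**Figure D5:**
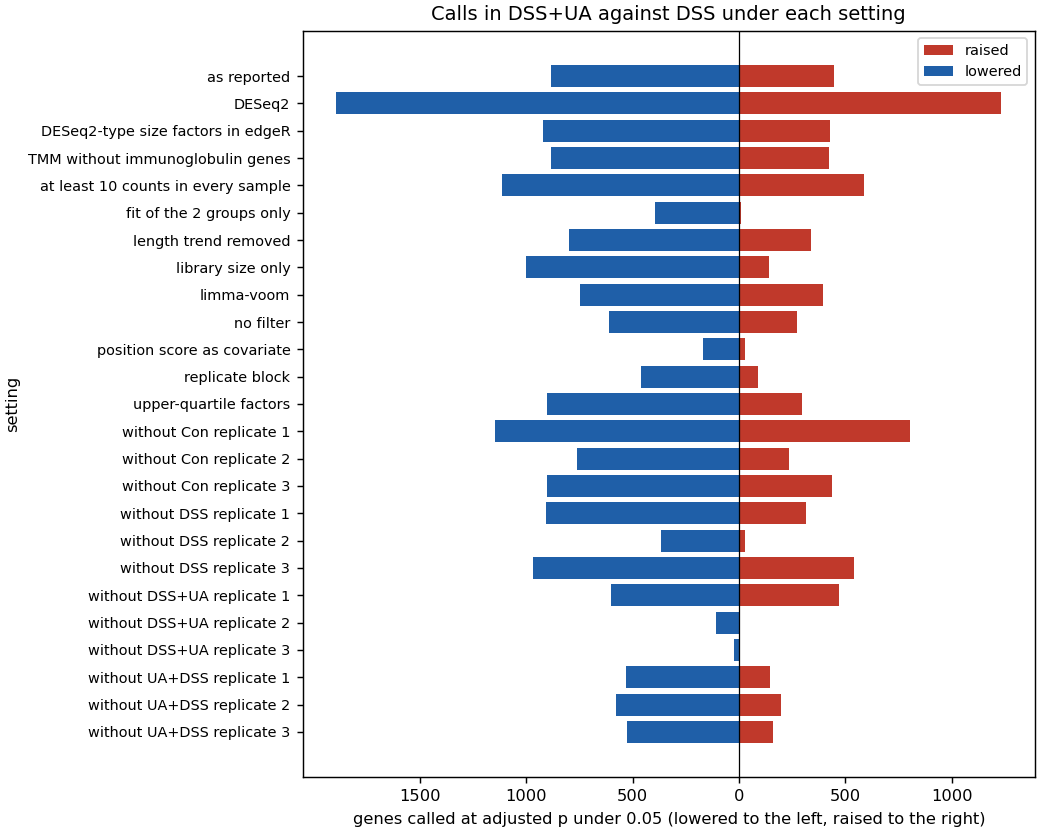
Bars give the number of genes lowered (blue, to the left) and raised (red, to the right) in DSS+UA against DSS under each setting. The number falls most without DSS+UA 2 or DSS+UA 3, to 110 and 25 genes, and with the colon position score as a covariate, to 199.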

How the data were processed

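RNA of colon tissue was sequenced in 12 libraries, 3 per group. The deposited values are raw read counts per gene, 1 library per file. The submitters' processing notes name FastQC, HISAT2, Cuffdiff and GRCm38. The aligner version, the counting program, the annotation release and the use of strand are, in the sources used here, not given, so overlapping and antisense genes may share counts.

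Groups were taken from the sample labels. Of 54532 genes per library, 17658 passed edgeR's filterByExpr, and they hold 99.81% of counts. In the annotation 37 rows had no gene name (0.0036% of counts), and 6 of them were among the genes tested. Counts were scaled by TMM and fitted with edgeR 4.0.16 quasi-likelihood on all 12 libraries, which share 1 estimate of spread (common biological coefficient of variation 0.352), under R 4.3.3. CPM values were scaled by TMM. The alternatives used limma 3.58.1, DESeq2 1.42.0 and other scalings, filters, covariates and left-out libraries. Summaries used Python 3.11.15, numpy 2.4.6, pandas 2.3.3 and scipy 1.17.1. The fit was tested on simulated counts.

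Members and gene lists were chosen with earlier results of these data known. The named genes were the 8 raised and 8 lowered most among called protein-coding genes whose average log2 CPM reached 1 and whose groups stood apart, the 2 members of each list with the smallest p, for inflammation, stroma and epithelium lists the 2 genes changed most in DSS against Con whose interval here lay within 1 log2 unit of 0, the 6 genes the study measured by other methods, and the 2 most abundant of each list for other tissues or position. Other members named with a fold change were chosen after their values were seen. Gene positions and shared stretches come from GENCODE on GRCm38, promoters from the RefSeq table on GRCm38.p6.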

Additional observations from a re-analysis of the deposited data

How the results depend on the processing

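The number of genes called in DSS+UA against DSS (1331, of which 448 raised and 883 lowered) depended on the processing. DESeq2 called 3126 (1233 raised, 1893 lowered), a fit of the 2 groups alone 404 (8 and 396), no filter on low counts 882 (271 raised), and the position score as covariate 199 (28 and 171). Library size as the only scaling gave 140 raised, 12.2% of its calls against 33.7%, and moved the median of all genes by -0.136, and upper-quartile factors gave 297 raised, 24.8% of calls. A minimum of 2-fold left 879, with 110 raised. Removing a length trend, chosen after seeing the data, called 1139.

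Leaving out 1 library gave 25 to 1955 calls. By direction, raised genes ranged from 0 to 806 and lowered genes from 25 to 1149. There were 399 calls without DSS 2, 110 without DSS+UA 2, 25 without DSS+UA 3, and 678, 774 and 685 without UA+DSS 1, 2 and 3. Raised genes were 806 without Con 1 and 235 without Con 2. The genes called in DSS against Con (4688) ranged from 2966 without Con 2 to 4727, with 3083 without DSS 1.

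No pairing by replicate number was seen, though correlations among groups of 3 libraries cannot exclude it. Deviations of same-numbered DSS and DSS+UA libraries correlated at -0.042, -0.216 and -0.017, and a different-numbered pair at 0.196. Over all groups the highest was 0.187 for a same-numbered pair (Con 1 and DSS 1). For a different-numbered pair it was 0.24 (Con 2 and DSS 3). With a replicate block 552 genes were called (91 raised, 461 lowered). DESeq2 gave no adjusted p for 6 called named genes. No named gene that was called changed direction in any setting. The causes of these shifts were not tested.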
